A study of Mus musculus with 2 samples.

Results

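Antiviral interferon-stimulated genes were described in mouse peritoneal macrophages, on 1 array for the LPS+CPN condition and 1 array for LPS+CPN+GGOH. The members were a list of 42 genes that encode nucleic acid sensors, antiviral effectors and modifiers of proteins, outside the IRF, STAT, GBP and IRG families. Every probe set that the platform annotation assigned to 1 gene symbol on the list was taken. This gave 66 probe sets of 38 members, among 34945 such probe sets of 18193 genes. Of the other 4, Isg15 and Ifi205 appeared only on probe sets shared with further genes, and Ifi44 and Phf11b had none here, so these 4 were not analysed. All 66 member probe sets had a signal above the floor of 59.9 on both arrays.

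Both conditions used C57BL/6J cells harvested from the peritoneum 3 days after injection of thioglycolate, a sterile irritant that recruits monocyte-derived macrophages. Both also received LPS (lipopolysaccharide, the bacterial ligand of TLR4) and CPN, a compound that the labels give by this abbreviation alone. Only the second received GGOH, geranylgeraniol, the alcohol of an isoprenoid that cells attach to small GTPases. The sources used here give no dose, no exposure time, and no age, sex or number of mice. No condition was replicated, so no test, standard error or p-value exists for any gene, and every ratio compares these 2 arrays.

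In macrophages LPS acts through TLR4 and the adaptor TRIF to switch on interferon beta, which leaves the cell and binds the receptor IFNAR on the same and neighbouring cells. The kinases JAK1 and TYK2 then activate a complex of STAT proteins and IRF9, which binds interferon-stimulated response elements (ISRE) in promoters. Interferon gamma signalling acts at a different site, the gamma-activated site (GAS), and IRF1 can also bind ISRE-type letters. The induced genes detect viral RNA and DNA, block viral translation and replication, and tag proteins with ubiquitin-like modifiers.

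The promoters of 6 members are shown, 4 with a 2-fold difference between the arrays (Ifit1, Oas3, Rsad2 and Ubd) and 2 of the same families without one (Ifit3 and Oas1a). Windows run from 250 bases before to 50 bases after the RefSeq start site (GRCm38.p6), written 5′ to 3′ on the gene's strand. Capitals mark letters that match an ISRE (GAAA, any 2 bases, then GAAA, on either strand) or a GAS (TTCNNNGAA, which reads the same on both strands). Ifit1 lies at chr19:34640639-34640938 on the plus strand and Ifit3 at chr19:34583279-34583578 on the plus strand. Oas3 lies at chr5:120777610-120777909 on the minus strand, and Oas1a at chr5:120907476-120907775 on the minus strand. The Rsad2 window is chr12:26456403-26456702 on the minus strand and that of Ubd is chr17:37193642-37193941 on the plus strand.
Ifit1: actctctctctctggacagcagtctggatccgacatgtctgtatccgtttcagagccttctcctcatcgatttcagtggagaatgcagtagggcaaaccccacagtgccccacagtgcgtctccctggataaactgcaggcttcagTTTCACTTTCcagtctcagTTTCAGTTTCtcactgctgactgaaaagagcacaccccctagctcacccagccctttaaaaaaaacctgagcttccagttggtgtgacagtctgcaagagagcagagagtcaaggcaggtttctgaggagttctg
Ifit3: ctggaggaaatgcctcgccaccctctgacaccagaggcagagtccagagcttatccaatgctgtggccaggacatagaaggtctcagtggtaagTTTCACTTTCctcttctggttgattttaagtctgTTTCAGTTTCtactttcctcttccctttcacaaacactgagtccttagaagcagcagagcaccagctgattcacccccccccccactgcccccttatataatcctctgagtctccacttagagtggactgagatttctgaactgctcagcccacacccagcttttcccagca
Oas3: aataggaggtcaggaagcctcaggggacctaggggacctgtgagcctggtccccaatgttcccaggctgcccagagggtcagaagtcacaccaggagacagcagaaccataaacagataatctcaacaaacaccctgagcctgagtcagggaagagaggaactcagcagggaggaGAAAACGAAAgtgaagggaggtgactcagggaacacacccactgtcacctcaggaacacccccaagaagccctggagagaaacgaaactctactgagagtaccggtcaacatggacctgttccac
Oas1a: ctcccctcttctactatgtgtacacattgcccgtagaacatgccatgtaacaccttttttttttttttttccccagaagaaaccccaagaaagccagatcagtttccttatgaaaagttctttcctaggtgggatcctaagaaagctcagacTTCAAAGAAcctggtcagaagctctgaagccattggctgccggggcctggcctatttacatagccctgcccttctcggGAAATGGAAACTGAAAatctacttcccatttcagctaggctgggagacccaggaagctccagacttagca
Rsad2: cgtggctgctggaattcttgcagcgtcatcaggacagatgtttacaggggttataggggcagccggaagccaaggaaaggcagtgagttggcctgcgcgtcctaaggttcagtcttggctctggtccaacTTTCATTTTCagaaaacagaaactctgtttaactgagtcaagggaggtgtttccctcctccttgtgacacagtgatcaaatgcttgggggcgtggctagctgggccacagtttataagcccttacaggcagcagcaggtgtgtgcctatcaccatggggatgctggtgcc
Ubd: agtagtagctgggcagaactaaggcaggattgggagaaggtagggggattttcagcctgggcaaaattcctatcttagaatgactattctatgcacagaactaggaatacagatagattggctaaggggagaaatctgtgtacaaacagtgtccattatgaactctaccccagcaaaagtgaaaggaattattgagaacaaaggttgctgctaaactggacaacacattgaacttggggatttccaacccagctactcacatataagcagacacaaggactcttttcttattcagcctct
Ifit1 and Ifit3 hold the same pair of ISRE matches, TTTCACTTTC and TTTCAGTTTC, at -104 and -85 in Ifit1 and at -156 and -122 in Ifit3 (first base, counted from the start site). Oas1a carries overlapping ISRE matches that begin at -20 and -14 and a GAS match at -98, and Oas3 carries 1 ISRE match at -75. Rsad2 has 1 at -120. In the Ubd window neither motif was found, which says only that these letters are not there.

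The antiviral genes were mostly lower on the LPS+CPN+GGOH array, in 31 of 38 members against 51.4% of all genes. Of 38 members, 8 were at least 2-fold lower (21.1%), against 1.66% of the 11518 genes measured. At least 2-fold higher were 0 members, against 5.50% of all genes (634). This last share depended on dim genes. With the floor raised to the 75th percentile, 126 of 7058 genes and 0 members were at least 2-fold higher. At 1.5-fold, 15 members were lower (39.5%; 7.82% of all genes) and 0 were higher (12.5% of all genes). The median log2 ratio of LPS+CPN+GGOH over LPS+CPN was -0.43 over the members and -0.01 over all genes. The members spread from -2.00 for Ubd to 0.31 for Adar, so the list held strongly lower genes beside genes with nearly equal signals. A measure of error within the arrays is how far probe sets for 1 gene differ in log2 ratio, a pooled SD of 0.45 (4166 genes with 10774 probe sets), or 1.36-fold. By it 18 members were lower by more than 1 SD (13.6% of all genes were), 0 were higher by that much (17.0%) and 20 lay within it.

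The LPS+CPN+GGOH array also carried more signal for cells other than macrophages. Summed over 10 fibroblast markers the signal was 1389 with LPS+CPN and 31973 with GGOH added, with 7 and 1 of them at or below the floor. Over 10 mesothelial markers it was 320 and 2547, with 9 and 1 at or below the floor. Markers of the labelled cell type were present on both arrays: all 14 macrophage markers measured were above the floor, with summed signals of 221894 and 195147. Their median log2 ratio was -0.24, 10 of 14 being lower (51.4% of all genes). The markers differed among themselves, from -0.73 for Mertk to 1.05 for Itgam, which was 2.07-fold higher. At or below the floor on both arrays were 4 of 5 T cell markers, Cd3e, Cd3d and Cd3g among them, all 4 B cell and all 3 NK cell markers. The other T cell marker, Lat, read 250.7 and 461.5 (1.84-fold higher). Summed signals were 4453 and 2323 for neutrophil markers, 696 and 738 for plasmacytoid and 168 and 214 for conventional dendritic cell markers. S100a8 made up most of the neutrophil sum (4282 and 2216), with S100a9, Cxcr2 and Camp below the floor on both arrays. Tcf4 (418.8 and 391.1) and Cox6a2 (199.4 and 275.5) made up most of the plasmacytoid sum, with Ccr9 and Klk1 below the floor on both. The part that the cell mixture plays in the members' ratios was not tested, and fewer cells of a type and less RNA per cell cannot be told apart in bulk samples. When the arrays were rescaled so that the macrophage markers had a median of 0, the members' median was -0.19 and that of all genes 0.21, and 2 members, Ubd and Parp14, were at least 2-fold lower (0.744% of all genes).

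**Figure D1:**
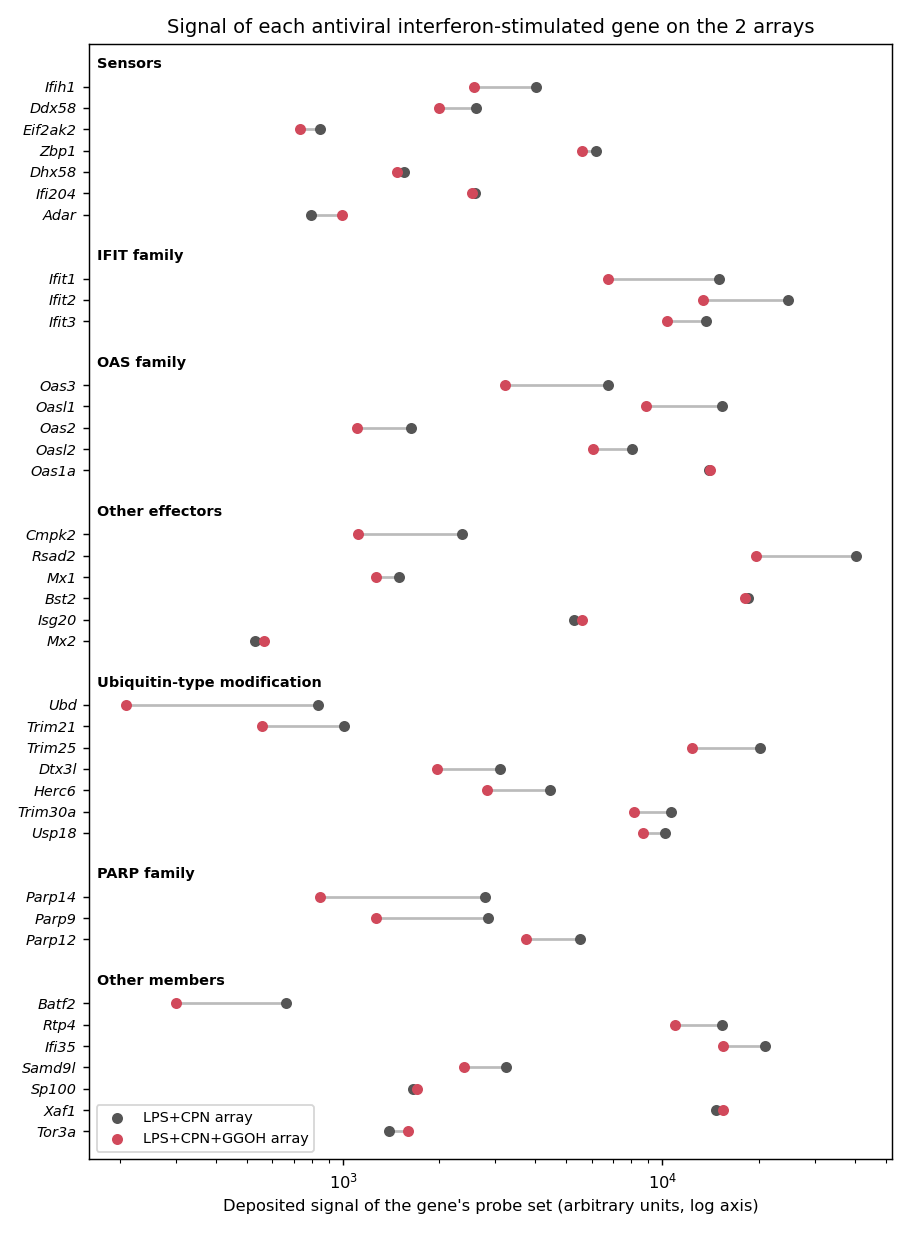
Deposited signal of each of the 38 members with LPS+CPN (grey) and with LPS+CPN+GGOH (red), 1 probe set per gene on a log axis, grouped by role. The red point lies to the left of the grey one for 31 members, and the distance is longest for Ubd (832.8 and 208.6).

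Among the sensors, which recognise viral nucleic acids, none of 7 was 2-fold apart (1.66% of all genes were lower and 5.50% higher by that much). Their median log2 ratio of -0.15 turned to 0.09 under equal macrophage markers. Ifih1, which encodes the RNA helicase MDA5, a sensor of long double-stranded RNA, had signals of 4029 with LPS+CPN and 2576 with GGOH added, and was 1.56-fold lower. Ddx58, the gene of RIG-I, read 2610 and 1990 (log2 ratio -0.39). These helicases that signal through MAVS were thus both lower on the GGOH array. At the deposited scale Ifih1 was lower by more than the spread between probe sets and Ddx58 by less. Dhx58, which encodes LGP2, a helicase without a signalling domain, gave 1549 and 1476 (-0.07). Zbp1, a sensor of Z-form nucleic acid that can trigger necroptosis, gave 6207 and 5582 (-0.15). Both values lay within the spread between probe sets.

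Eif2ak2, the gene of the kinase PKR that stops translation on double-stranded RNA, had signals of 846.0 and 734.7 (-0.20). Ifi204, a DNA-binding member of the interferon-inducible p200 family, gave 2595 and 2525 (-0.04). Adar, whose product edits adenosine in double-stranded RNA and keeps self RNA from being sensed, was the member with the highest ratio, at 795.7 and 989.5 (0.31). Other Adar probe sets pointed the other way (-0.54 and -0.24), so the sign for this gene depends on the probe set.

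The IFIT genes encode proteins that bind viral RNA lacking the host's cap methylation and keep it from being translated. All 3 were lower on the GGOH array, under every setting tried, but by different amounts. Ifit1 read 15048 with LPS+CPN and 6736 with LPS+CPN+GGOH, a 2.23-fold lower signal (log2 ratio -1.16). Ifit2 read 24701 and 13411 and was 1.84-fold lower. Ifit3 read 13737 and 10351, 1.33-fold lower, which is within the spread between probe sets. Ifit1 and Ifit3, whose promoter windows above hold the same ISRE letters, stood on opposite sides of that spread at the deposited scale. After scaling to array medians both lay beyond it, Ifit3 at -0.57. Each gene has 1 probe set, and the difference between them was not tested.

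Oligoadenylate synthetases make a second messenger from double-stranded RNA that turns on the nuclease RNase L, and the family here ran from 2-fold lower to equal. Oas3 had signals of 6760 and 3219 (2.10-fold lower). Oas2 had signals of 1637 and 1104 (1.48-fold lower), and Oas1a had nearly equal ones, 13962 and 14113, with a log2 ratio of 0.02 that was -0.15 after scaling to array medians and 0.26 under equal macrophage markers. Genes whose products share an enzyme activity thus ranged from a 2-fold lower to an equal signal. Of the OAS-like genes, Oasl1, whose product restrains translation of Irf7, gave 15396 and 8874 (1.73-fold lower). Oasl2, its paralogue, gave 8011 and 6044 (1.33-fold lower).

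Of 6 other effectors, 2 were at least 2-fold lower (1.66% of all genes) and 4 lay within the spread between probe sets. Under equal macrophage markers 0 of the 6 were 2-fold lower (0.744% of all genes), and their median of -0.13 turned to 0.11. With the median over probe sets 0 were 2-fold lower as well (1.29% of all genes). Rsad2 encodes viperin, a radical SAM enzyme that converts CTP into a chain terminator of viral RNA synthesis. Its signals were 40379 and 19611 (2.06-fold lower). Cmpk2, a mitochondrial nucleotide kinase, had signals of 2363 and 1109 (2.13-fold lower). Rsad2 and Cmpk2 are next to each other in the RefSeq gene order and had log2 ratios of -1.04 and -1.09, but taken as medians over all probe sets these were -0.77 and -0.80.

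The remaining effectors were close to equal, and the sign of each depended on the scaling. Mx1 and Mx2 belong to a family of dynamin-like GTPases that can trap viral nucleocapsids. Their RNA signals do not show whether these cells make a working Mx protein. Mx1 gave 1494 and 1268 (log2 ratio -0.24), and Mx2 gave 528.1 and 565.6 (0.10). Bst2, or tetherin, which holds budding virions at the cell surface, gave 18540 and 18149 (-0.03). Isg20, an RNA exonuclease, gave 5277 and 5594 (0.08).

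Genes of ubiquitin-type modification were lower in 7 of 7 (51.4% of all genes), with a median of -0.66. Under equal macrophage markers 6 were lower (28.7% of all genes). The lowest ratio of any member was that of Ubd, which encodes the ubiquitin-like modifier FAT10. Its signals were 832.8 with LPS+CPN and 208.6 with LPS+CPN+GGOH, a 3.99-fold lower signal, and only 8 of the 11518 genes had a lower ratio. Ubd has 1 probe set on this array. With the floor at the 75th percentile the second signal lies below the floor and the log2 ratio of -2.00 becomes a bound of -1.15.

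TRIM genes encode ubiquitin ligases with roles in antiviral signalling. Trim21, a cytosolic antibody receptor, read 1005 and 556.0 (1.81-fold lower). Trim25, which acts on RIG-I, read 20227 and 12405 (1.63-fold lower). Their other probe sets gave smaller differences, with log2 ratios of -0.28 for Trim21 and of -0.36 and 0.08 for Trim25. Trim30a, a regulator of TLR signalling, read 10646 and 8132 (1.31-fold lower), but 8153 and 3963 (2.06-fold lower) on its other probe set.

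Herc6, the mouse ligase that attaches ISG15 to proteins, gave 4449 and 2814 (1.58-fold lower). Usp18, which removes ISG15 and also blocks IFNAR signalling, gave 10176 and 8719 (log2 ratio -0.22, or 0.02 under equal macrophage markers). The log2 ratio of Herc6 ranged from -0.66 to 0.30 over 4 probe sets, and with the median over them (-0.21) it was close to that of Usp18. Dtx3l, a ubiquitin ligase that pairs with PARP9, gave 3109 and 1970 (1.58-fold lower).

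ADP-ribosyltransferase genes had the lowest median of any role group, -1.16 over 3 genes, each lower under every setting. Parp14 read 2775 and 843.2, a 3.29-fold lower signal, and its other probe set, at 394.5 and 157.4, was 2.51-fold lower. Parp9 read 2839 and 1271 (2.23-fold lower). Parp12, a zinc-finger member of the family, read 5525 and 3727 (1.48-fold lower). Parp14, Dtx3l and Parp9 are consecutive protein-coding genes in the RefSeq order, and all 3 were at least 1.5-fold lower (7.82% of all genes). Parp14 and Ubd were the members at least 2-fold lower under all 10 settings.

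Among the other members, Batf2, a basic leucine zipper factor that works with IRF1 in activated macrophages, read 661.7 and 299.4 (2.21-fold lower). Rtp4, a receptor transporter protein, gave 15327 and 10927 (1.40-fold lower), and 409.2 and 215.3 (1.90-fold lower) on its other, dimmer probe set. Ifi35, a partner of NMI, gave 20908 and 15438 (1.35-fold lower), and Samd9l, a restriction factor of poxviruses, 3231 and 2397 (1.35-fold lower). Batf2 was thus the only 1 of these 7 genes past 2-fold (1.66% of all genes were at least 2-fold lower). The other 3 had slightly higher gene values with GGOH: Sp100, a nuclear body protein, at 1656 and 1705 (log2 ratio 0.04). Xaf1, a pro-apoptotic antagonist of XIAP, read 14733 and 15471 (0.07). Tor3a, an AAA ATPase of the endoplasmic reticulum, read 1394 and 1598 (0.20). Each of these 3 also had a probe set with a log2 ratio of -0.34 or below, and Sp100 (-0.12) and Xaf1 (-0.10) turned below 0 after scaling to array medians.

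**Figure D2:**
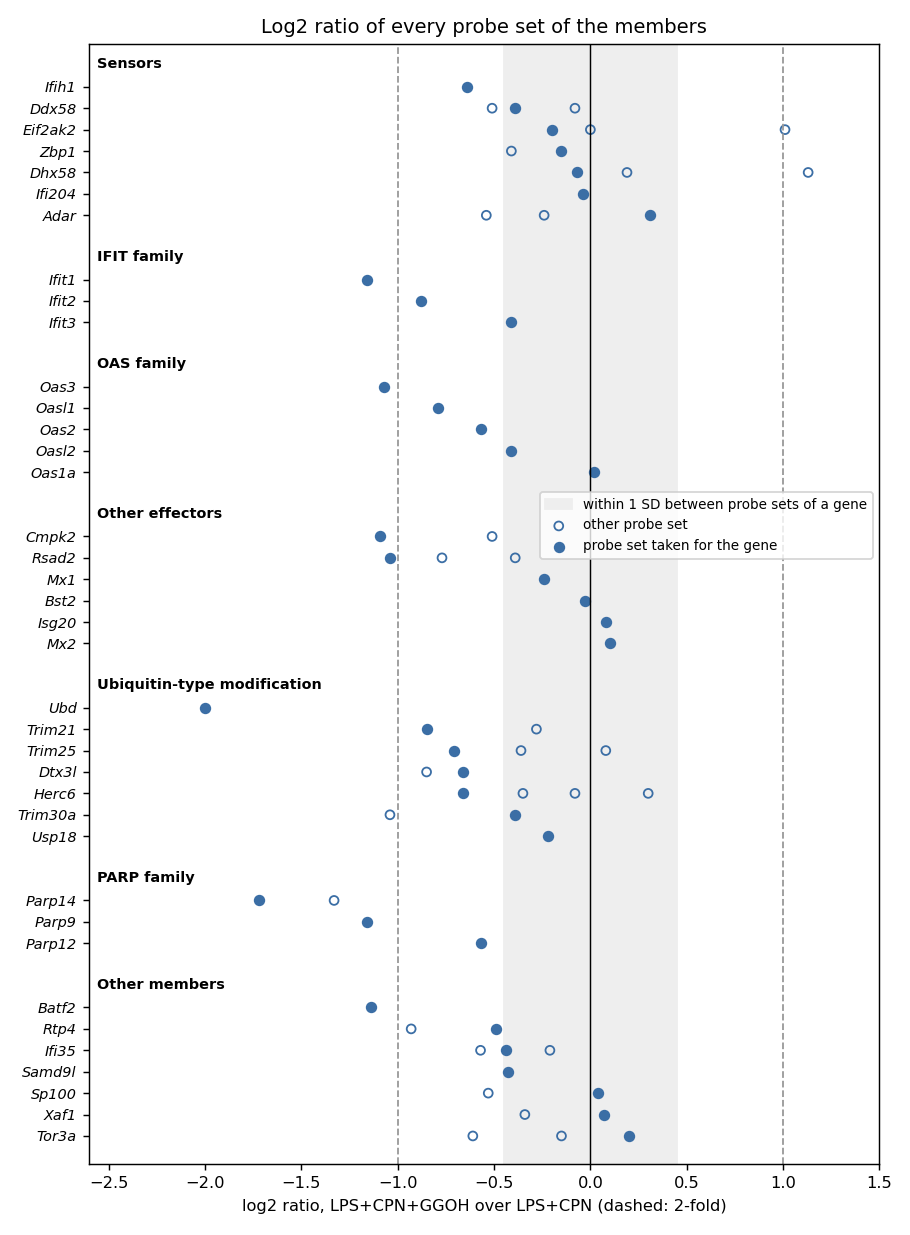
Log2 ratio of LPS+CPN+GGOH over LPS+CPN for all 66 member probe sets, with the probe set taken for the gene filled and the others open. The grey band spans 1 pooled SD (0.45), and the dashed lines mark 2-fold. Most points lie left of 0 (54 of 66), and the 2 points right of the upper 2-fold line are dim probe sets of Dhx58 and Eif2ak2.

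Probe sets of a member did not always give the same ratio. Of 18 members with several probe sets, 10 were lower in all of them, 8 had both signs and 0 were higher in all. These counts were not made over all genes, so they have no share to be set beside. Over single probe sets, 10 of 66 were at least 2-fold lower (15.2%; 1.58% of the 21025 measured probe sets with 1 symbol) and 2 were at least 2-fold higher (3.03%; 6.29%). The higher ones were a Dhx58 probe set with signals of 77.6 and 170.4 and an Eif2ak2 probe set with 114.2 and 229.9. Both are low signals, and the probe sets taken for these genes had log2 ratios of -0.07 and -0.20. For Rsad2 the 3 log2 ratios were -1.04, -0.77 and -0.39, so its call at 2-fold rests on 1 probe set. RNA quality differed as well: the ratio of 3′ to 5′ control signals was 2.44 for Actb and 1.98 for Gapdh with LPS+CPN, against 1.24 and 0.956 with LPS+CPN+GGOH. The part of this difference in the members' ratios was not tested.

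**Figure D3:**
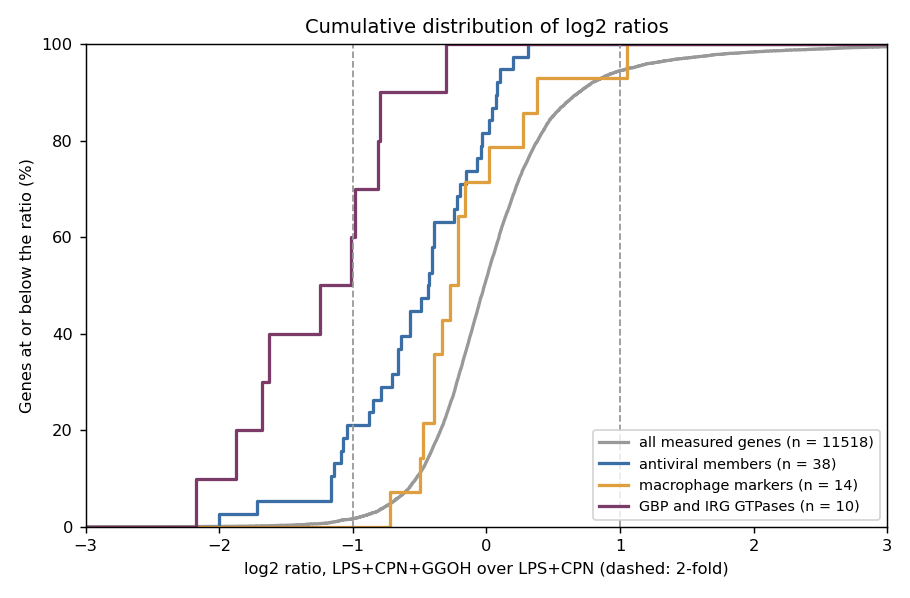
Cumulative share of genes (vertical axis, percent) at or below a given log2 ratio (horizontal axis) for all 11518 measured genes, the 38 antiviral members, 14 macrophage markers and 10 GBP and IRG GTPases, with dashed lines at 2-fold. The members' curve lies left of that of all genes, and the curve of the GTPases lies further left.

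The genes of the pathway that drives these targets had a median log2 ratio of -0.21. Of 36 listed genes for interferons, receptors, kinases, transcription factors and inhibitors, 29 were measured, 2 were at least 2-fold lower (1.66% of all genes) and 0 higher (5.50%). Their median turned to 0.03 under equal macrophage markers. Ifnb1, the interferon beta gene, had low signals of 125.8 and 87.2 (log2 ratio -0.53). The receptor genes Ifnar1 (1266 and 1118, log2 ratio -0.18) and Ifnar2 (15599 and 15659, 0.01) were within the spread between probe sets. So were the transcription factor genes Stat2 (355.6 and 457.4, 0.36) and Irf9 (2359 and 2491, 0.08), and Irf7, the factor that amplifies interferon production (21040 and 18847, -0.16).

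The 2 genes at least 2-fold lower were Irf1 and Socs3. Irf1, itself an interferon-induced activator, had signals of 18294 and 2904 (6.30-fold lower). Socs3, an inhibitor of cytokine receptors that signal through JAK kinases, had 3271 and 962.0 (3.40-fold lower). Socs1, the main feedback inhibitor of interferon receptors, was above the floor only with LPS+CPN (95.9) and at least 1.60-fold lower. Signals of Ifng, the interferon gamma gene, were at or below the floor on both arrays.

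The interferon-inducible GBP and IRG GTPases, which attack vacuoles that hold pathogens, were lower by more than the antiviral genes in their median, -1.13 over 10 genes against -0.43. Under equal macrophage markers their median was -0.89, with 5 at least 2-fold lower (0.744% of all genes). At the deposited scale they had 6 genes at least 2-fold lower (1.66% of all genes) and 0 higher: Ifi47 (log2 ratio -2.18), Gbp7 (-1.88), Irgm2 (-1.68), Iigp1 (-1.62), Gbp8 (-1.24) and Igtp (-1.01). With 1 array per condition, this difference between the lists has no test. Among 60 measured genes of a further list of interferon-stimulated genes, the median was -0.26, with 5 at least 2-fold lower (1.66% of all genes) and 0 higher (5.50%). Under equal macrophage markers the median was -0.02, with 2 lower (0.744% of all genes) and 1 higher (943 of 11552 genes). The 5 were Il15ra (log2 ratio -1.70), the receptor chain that presents IL-15; Trim56 (-1.31), a ubiquitin ligase; Zc3hav1 (-1.17), the zinc-finger antiviral protein ZAP; Pml (-1.13), the scaffold of nuclear bodies; and Apobec3 (-1.05), a cytidine deaminase.

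Interferon motifs were found in a larger share of the members' promoter windows than of those of all genes on the array. RefSeq windows were at hand for 26 members, of which 11 held an ISRE match (42.3%, against 3.64% of 14365 genes on the array) and 7 a GAS match (26.9%, against 8.57%). The 11 with an ISRE match had a median log2 ratio of -0.41, from -1.16 to 0.02. The 15 without a match had one of -0.57, from -2.00 to 0.31. At least 2-fold lower were 3 of the 11 and 2 of the 15 (1.66% of all genes). Parp14, Parp9 and Batf2, each at least 2-fold lower, had no window, so neither this split nor that by GAS covers them. The 7 with a GAS match had a median of -0.03, from -0.88 to 0.31. The 19 without a match had one of -0.66, from -2.00 to 0.07. At least 2-fold lower were 0 of the 7 and 5 of the 19. These splits have no test. A match is a string of letters and not a bound site. Sites that depart from these exact letters were not counted, so a window without a match may still hold one. The ISRE matches of Bst2 (log2 ratio -0.03) overlap each other, and the first overlaps a GAS match, as the drawing of positions shows, while Rsad2, at -1.04, has 1 ISRE match alone.

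**Figure D4:**
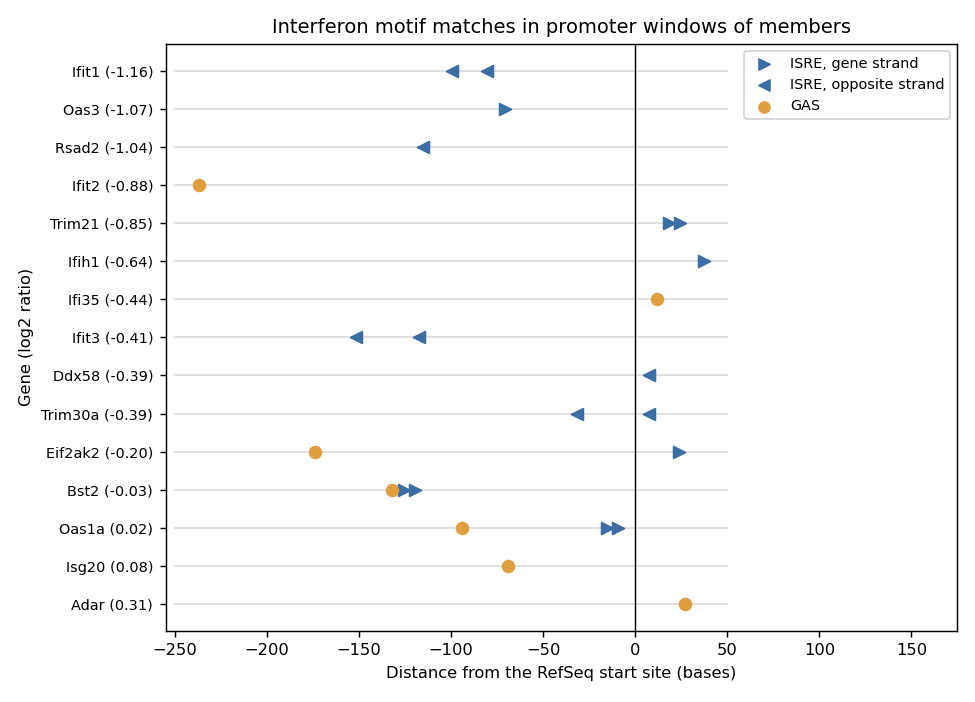
Positions of ISRE matches (blue, pointing along the strand they match) and GAS matches (orange) in promoter windows, by distance from the RefSeq start site in bases, for the members with any match, ordered by log2 ratio (in brackets). Trim30a is drawn from 2 start sites on 1 line. ISRE matches lie at log2 ratios from -1.16 to 0.02 and GAS matches from -0.88 to 0.31.

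The level of the whole list depended on how the arrays were brought to a common scale, and its place among all genes less so. Under the 10 settings the members' median ranged from -0.60 after scaling to array medians, where that of all genes was -0.17, to -0.19 under equal macrophage markers, where it was 0.21. The difference between these medians ranged from -0.44 to -0.30. The share of members below 0 ran from 63.2% under equal macrophage markers (28.7% of all genes) to 94.7% after scaling to array medians (65.4%). Not every setting can change a sign, and a pseudocount, for example, cannot. Of the 38 members, 24 were below 0 in all 10 settings, a count not made over all genes. The other 14 were Adar, Bst2, Dhx58, Eif2ak2, Ifi204, Isg20, Mx1, Mx2, Oas1a, Sp100, Tor3a, Usp18, Xaf1 and Zbp1. At the deposited scale 76.8% of all genes past 2-fold were higher with GGOH, against 61.4% after scaling to array medians, 62.1% with quantile normalization and 91.6% under equal macrophage markers.

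**Figure D5:**
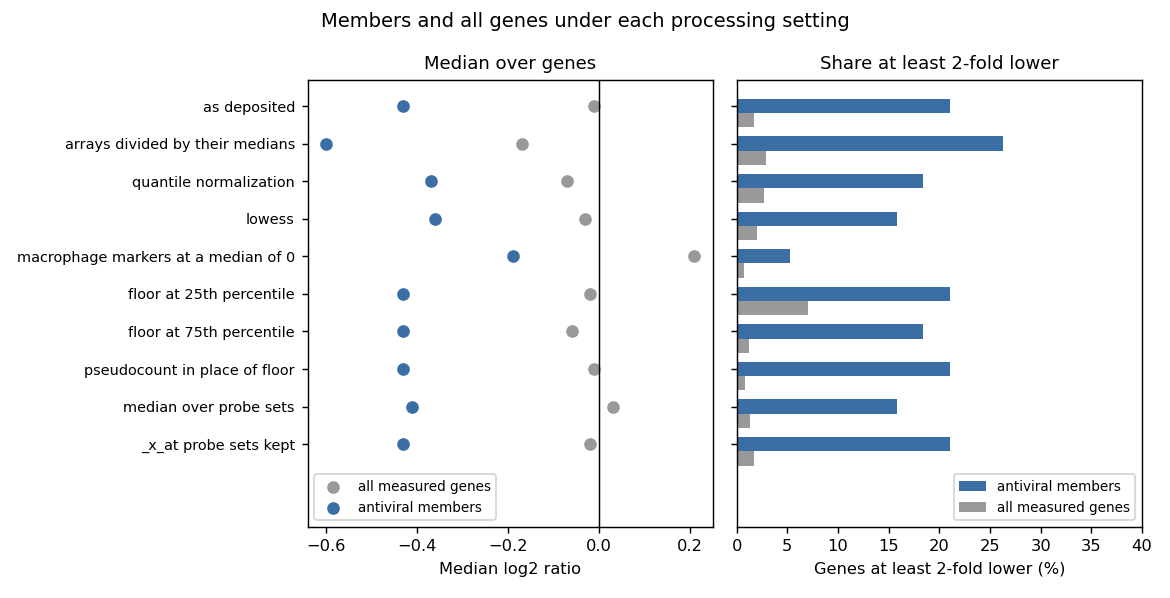
Median log2 ratio (left) and share of genes at least 2-fold lower in percent (right) for the 38 antiviral members (blue) and all measured genes (grey) under the deposited scale and 9 other settings. The members' median is the lower of both in every setting, and their 2-fold share drops to 2 of 38 under equal macrophage markers (0.744% of all genes).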

How the data were processed

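The deposited table gave 1 signal intensity per probe set on a linear scale for 45101 probe sets (64 controls) and 2 arrays, which the authors computed with MAS5, per the submitters' processing notes; the sources used here give no version, scaling target or detection calls. Both arrays had a mean of 500.0 over the middle 96% of probe sets, and the median was 56.7 (LPS+CPN) and 63.7 (LPS+CPN+GGOH), so the intensity values carry a common scaling. Precision is limited by the number of arrays.

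Genes were named from GEO's platform annotation, using probe sets with 1 symbol (932 with several and 9160 with none were left out). Signals were floored at 59.9, the 50th percentile over both arrays. Each of 18093 genes took its brightest probe set by mean log2 signal, without 2038 of the _x_at class, which may cross-hybridize. Genes floored on 1 array gave a bound, and those floored on both counted as not measured. Called means at least 2-fold or 1.5-fold, bounds included. No test was possible.

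All members with a probe set were named. Other genes of the lists were named at 2-fold or more, with some of the pathway always named. The members and lists were chosen with earlier results of these data known. The 9 alternatives were 4 scalings (array medians, quantile, lowess with span 0.4, and 14 macrophage markers at a median of 0), a floor at the 25th or the 75th percentile, a pseudocount, the median over probe sets, and _x_at probe sets kept. Promoters were RefSeq windows of GRCm38.p6. Steps were tested on simulated data with changes larger than those of most members and noise smaller than the SD between probe sets. That test therefore does not cover small ratios. Python 3.11.15, numpy 2.4.6, pandas 2.3.3, scipy 1.17.1 and statsmodels 0.14.6 were used.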

Additional observations from a re-analysis of the deposited data

How the results depend on the processing

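No paired analysis was possible because each condition had 1 array and the labels carry no replicate numbers. The 8 members at least 2-fold lower (1.66% of all genes) became 2 under equal macrophage markers (0.744% of all genes). They were 6 to 10 in the other 8 alternatives, where the share of all genes ran from 0.835% with a pseudocount to 7.08% with the floor at the 25th percentile. The 10 member probe sets at least 2-fold lower (1.58% of all probe sets with 1 symbol) became 3 under equal macrophage markers. The 2 member probe sets at least 2-fold higher (6.29% of all) became 0 after scaling to array medians and with quantile normalization. They also became 0 with the floor at the 75th percentile and with a pseudocount, and 1 after lowess. The share of all probe sets was not computed under the alternatives, so these changes cannot be told from a shift of every probe set. No member was at least 2-fold or 1.5-fold higher in any of the 9 alternatives, and the members' median kept its sign in all of them. The lower floor and the kept _x_at probe sets left every member value unchanged, and the higher floor changed only Batf2 and Ubd. Scaling to array medians or to macrophage markers moved all members by a constant smaller than the SD between probe sets. These settings could move few or no values past that SD, so the count that follows does not show that single-gene ratios are robust. Of 342 single-gene values under an alternative, 339 stayed within the SD between probe sets. The 3 others were Ubd at -1.15 (a bound, floor at the 75th percentile), and Herc6 at -0.21 and Adar at -0.24 with the median over probe sets. Signals near the floor could not be told from background.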
